A study of Rattus norvegicus with 4 samples.

Results

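The nuclear genes of respiratory complex I and of its assembly were followed by RNA sequencing in cultured ventricular myocytes of newborn rats, primary cells that are not a line and come with other cell types of the heart. The members were all rows of the deposited table whose symbol begins with Nduf, taken once per gene identifier, and they came to 40 of 14137 identifiers. The study held 4 libraries in 2 groups, all from cells given a lentivirus and collected at day 5. The control group, labelled WT, received a control short hairpin RNA (2 libraries), and the other group, labelled KO, received a hairpin against Crat (2 libraries). Crat encodes carnitine acetyltransferase of the mitochondrion, and the study's title concerns its depletion and dilated cardiomyopathy. A hairpin lowers a transcript and does not delete the gene, so the groups are called control and Crat hairpin here. The strain, the number of animals behind a culture and whether the cultures were separate are not given in the sources used here, so the p-values measure the spread between these libraries, which may be technical.

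Complex I takes electrons from NADH, passes them along iron-sulphur clusters to ubiquinone and pumps protons across the inner mitochondrial membrane. It is L-shaped. In the arm that reaches into the matrix, the N module oxidises NADH and the Q module reduces ubiquinone, and the membrane arm, with a proximal and a distal part, holds the proton pumps. The 7 pump and anchor subunits are encoded by mitochondrial DNA; the remaining core subunits, the many accessory subunits and the assembly factors are encoded in the nucleus. Heart muscle is among the tissues richest in complex I.

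Of the 40 members, 29 encode subunits (8 of the N module, 5 of the Q module, 7 of the proximal and 9 of the distal membrane arm), 7 are Ndufaf assembly factors, and 2, Ndufa4 and Ndufa4l2, carry the name but are no longer assigned to complex I. The last 2, Ndufa13-ps1 and Ndufv3-ps1, are named as pseudogenes. A further 8 subunits (Ndufa1, Ndufa5, Ndufa7, Ndufb1, Ndufb2, Ndufb9, Ndufc1 and Ndufs6) had no row under these symbols in the table. Of them, Ndufb1, Ndufb2 and Ndufb9 belong to the distal membrane arm, so its counts and read share leave them out. Values are reads per 1000000 library reads (RPM), with no division by gene length, so levels are compared between libraries and not between genes. Testing required an average of 1 RPM or more, which 39 members met and Ndufa4l2 did not.

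Depth was very uneven. The libraries held 23680064 and 1321735 reads in control replicates 1 and 2 and 321516 and 1622998 in Crat hairpin replicates 1 and 2, and the members together held 92237, 5105, 1055 and 5140 of them. In Crat hairpin replicate 1 the median member was counted with 20 reads and 8 members with fewer than 10, so that library sets the precision. Crat, the target, had 148 and 156 RPM in the controls, and the Crat hairpin left 24.9 and 19.7 RPM. All 10 heart muscle markers found, of 12 listed, had reads in every library, as had all 9 fibroblast markers.

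The nuclear complex I genes were lower in part, and with all 4 libraries none was higher past the threshold. In the comparison of Crat hairpin against control, 7 of the 39 tested members fell and 0 rose (limma, Benjamini-Hochberg adjusted p under 0.05), and 32 did not pass. Over all genes 6.36% were called lower and 12.6% higher, so the members' share of falls was above and their share of rises below that of all genes; neither share was tested as a list. For rises, 0 members passed by limma even at an unadjusted p under 0.05 (21.2% of all genes did), and 0 by edgeR or DESeq2 on the recovered reads (22.6% and 8.92%). The 7 were Ndufa4, Ndufs8, Ndufb6, Ndufb8, Ndufb7, Ndufb5 and Ndufv1. Their number depended on single libraries. A fit with a library left out has 1 library in that group, so the group's own spread is not measured. Without control replicate 1 or without control replicate 2 only Ndufa4 passed (1 member each, beside 1.46% and 1.35% of all genes). Without Crat hairpin replicate 1 there were 12 (10.3% of all genes), and without Crat hairpin replicate 2 there were 14 (20.3%), with 4 members higher (27.7%). It also depended on the test: edgeR, which weighs each library by its reads, called 14 lower (10.1% of all genes), DESeq2 4 (4.22%), and the authors' deposited table held 8 lower at an adjusted p under 0.05 (5.6%). The same background was 6.91% with the replicate number as a block, 15.9% in edgeR with TMM scaling, 0.61% in limma without a variance trend and 0.301% with reads thinned to the shallowest library; the members' counts under these are given with the other processing choices.

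The members' median log2 fold change was -0.16, and that of all genes tested was 0.15. The scaling of the libraries therefore weighs on a shift of this size. Median-of-ratios scaling moved the median of all genes by -0.18 and TMM scaling by -0.19; 13 members then fell under either scaling, beside 9.68% and 9.87% of all genes. Over all genes limma called 823 lower and 1631 higher on the deposited scale, and 1254 lower and 1044 higher under median-of-ratios scaling. The adjusted p-values in the authors' deposited table gave 792 lower and 694 higher. Set against the median of all genes, the members' median lay at -0.31 under the deposited scaling and at -0.31 under both others, and 31 of 39 members lay below the median of all genes in each. In 19 tested members both Crat hairpin libraries lay below both controls, and in 4 above; over all genes tested the shares were 21.7% and 39.1%.

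**Figure D1:**
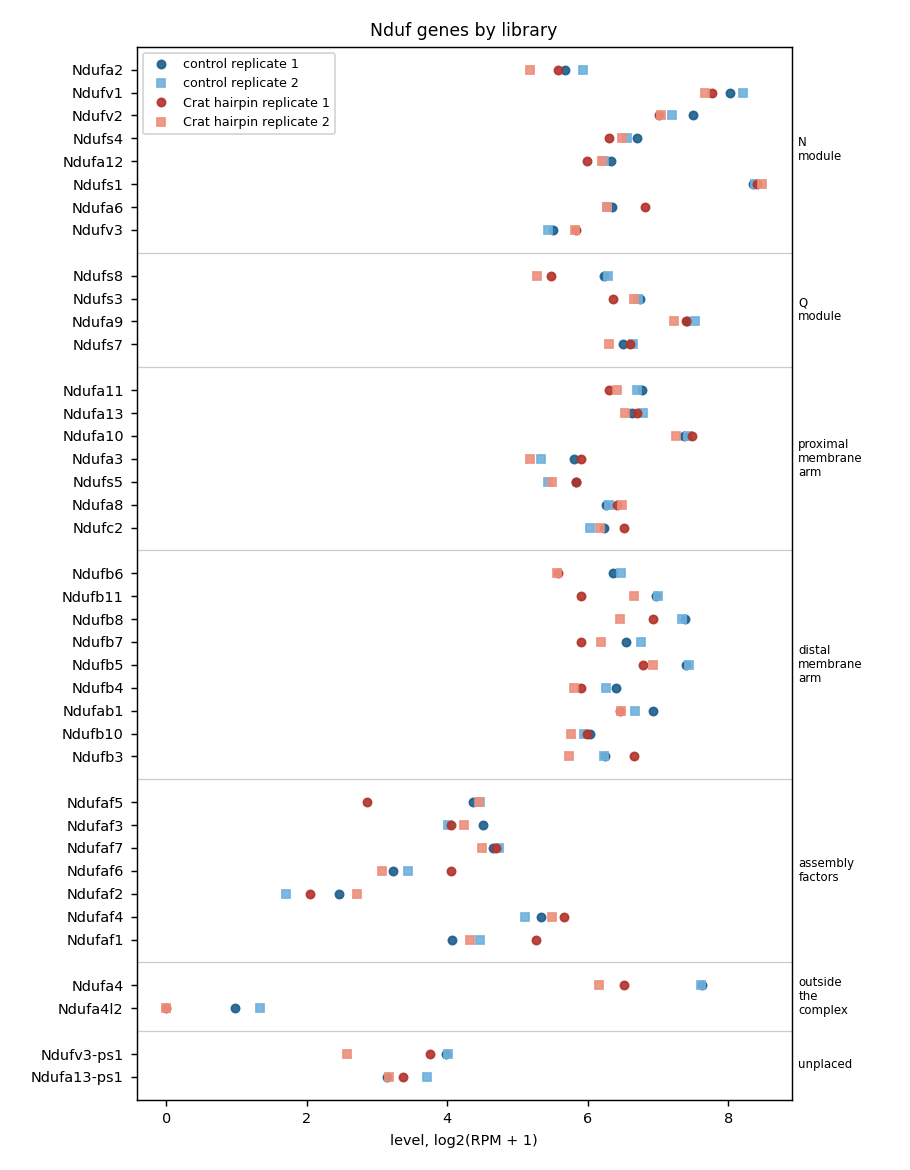
Level of 39 of the 40 members in each library, as log2(RPM + 1), with rows grouped by place in the complex. Blue marks are the 2 control libraries and red marks the 2 Crat hairpin libraries. In the distal membrane arm both red marks lie left of both blue ones for 7 of 9 genes. Over all genes tested 21.7% lay lower in this way and 39.1% higher. Ndufa4l2 is at 0 in both Crat hairpin libraries.

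Summed over all members, the level was 3895 and 3862 RPM in the controls and 3281 and 3167 RPM in the Crat hairpin libraries, or 0.390%, 0.386%, 0.328% and 0.317% of all reads. Both Crat hairpin libraries lay below both controls, and the mean was 0.831 of the control mean. An exact permutation test of 2 libraries against 2 cannot go below p = 0.333, two-sided, and gave that value. In a bulk culture, fewer heart muscle cells and less RNA per cell cannot be told apart. The summed level of the 10 heart muscle markers moved in the same direction and further, from 19671 and 20085 RPM to 7819 and 8163 RPM, with 9 of 10 lower past the threshold and none at 0. Fibroblast markers (9 found) fell in 5 cases and rose in 2, their sum going from 22932 and 23922 RPM to 16805 and 17143 RPM. Smooth muscle and pericyte markers (7 found) fell in 5 cases and rose in 1 (no rise passed after median-of-ratios scaling), from 5164 and 5271 RPM to 1863 and 1786 RPM in sum, with Rgs5 at 0 in Crat hairpin replicate 1. Leukocyte markers (7 found, 0 of 7 called by limma or edgeR) summed to 43.3 and 43.1 RPM in the controls and 46.7 and 48.7 RPM in the Crat hairpin libraries, and Csf1r was at 0 in Crat hairpin replicate 1. Of 5 endothelial markers found, 4 were tested, of which 1 fell and 1 rose; they summed to 50.7 and 62.0 RPM against 65.3 and 58.5 RPM, with Cdh5 at 0 in Crat hairpin replicate 1 and Vwf at 0 in both Crat hairpin libraries. The part of cell composition in the complex I values was not tested.

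The distal membrane arm, the end of the complex farthest from the matrix arm, held most of the subunits that fell. Of its 9 members, 4 fell and 0 rose, beside 6.36% and 12.6% of all genes. All 9 had a log2 fold change below 0, and the median was -0.57 beside 0.15 over all genes. Ndufb6, an accessory subunit of this arm, stood at 81.0 and 87.8 RPM in the controls, against 46.7 and 46.2 RPM with the Crat hairpin. The libraries of each group lay close together and far from the other group, on 15 and 75 reads in the Crat hairpin libraries. Closeness on so few reads is no measure of precision. Ndufb6 fell by 0.85 in log2 units, with an SE of 0.17 and n = 2 per group (limma adjusted p = 0.00664). Later ± values are this SE, which gives every library equal weight whatever its reads. Ndufb8, an accessory subunit whose protein is widely used as a gauge of assembled complex I, was at 167 and 160 RPM in the controls and at 121 and 86.9 RPM in the Crat hairpin libraries. The groups did not overlap, although the Crat hairpin libraries differed, on 39 and 141 reads. Ndufb8 fell by 0.67 ± 0.16 (limma adjusted p = 0.0192). The value was -0.43 without Crat hairpin replicate 2 and -0.90 without Crat hairpin replicate 1.

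Ndufb7, which lies on the intermembrane space side, had 92.0 and 107 RPM in the controls. Its Crat hairpin values were 59.1 and 72.1 RPM, on 19 and 117 reads. It fell by 0.59 ± 0.17 (limma adjusted p = 0.0363), with every Crat hairpin value below both controls, and it did not pass in DESeq2 (adjusted p = 0.207) or in the authors' deposited table (adjusted p = 0.0843). Ndufb5 was at 168 and 173 RPM against 109 and 121 RPM, the latter on 35 and 196 reads. Its groups were narrow and apart, and it fell by 0.57 ± 0.12 (limma adjusted p = 0.0102; DESeq2 adjusted p = 0.0514).

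The other distal members graded from near the threshold to no difference. Ndufb11, encoded on the X chromosome, was at 125 and 126 RPM in the controls and at 59.1 and 99.8 RPM in the Crat hairpin libraries. The spread between the Crat hairpin libraries was wide, and the log2 fold change of -0.70 ± 0.22 narrowly missed the threshold (limma adjusted p = 0.0529). The value was -0.33 without Crat hairpin replicate 1 and -1.08 without Crat hairpin replicate 2, and it passed in edgeR (-0.45, adjusted p = 0.00422) and in the authors' deposited table (adjusted p = 0.0487). Ndufab1, the mitochondrial acyl carrier protein, which serves lipoic acid synthesis as well as complex I, was at 120 and 101 RPM against 87.1 and 88.1 RPM, a log2 fold change of -0.33 ± 0.15 (limma adjusted p = 0.167; edgeR adjusted p = 0.0142), and -0.20 without control replicate 1. Of the remaining 3, described after their values were seen, Ndufb4 had -0.47 ± 0.17 (limma adjusted p = 0.0795; edgeR adjusted p = 0.00344), Ndufb10 -0.12 ± 0.18 and Ndufb3 -0.05 ± 0.26. Ndufb3 was at 75.1 and 74.1 RPM in the controls and at 99.5 and 52.4 RPM in the Crat hairpin libraries, which fell on either side of the controls.

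**Figure D2:**
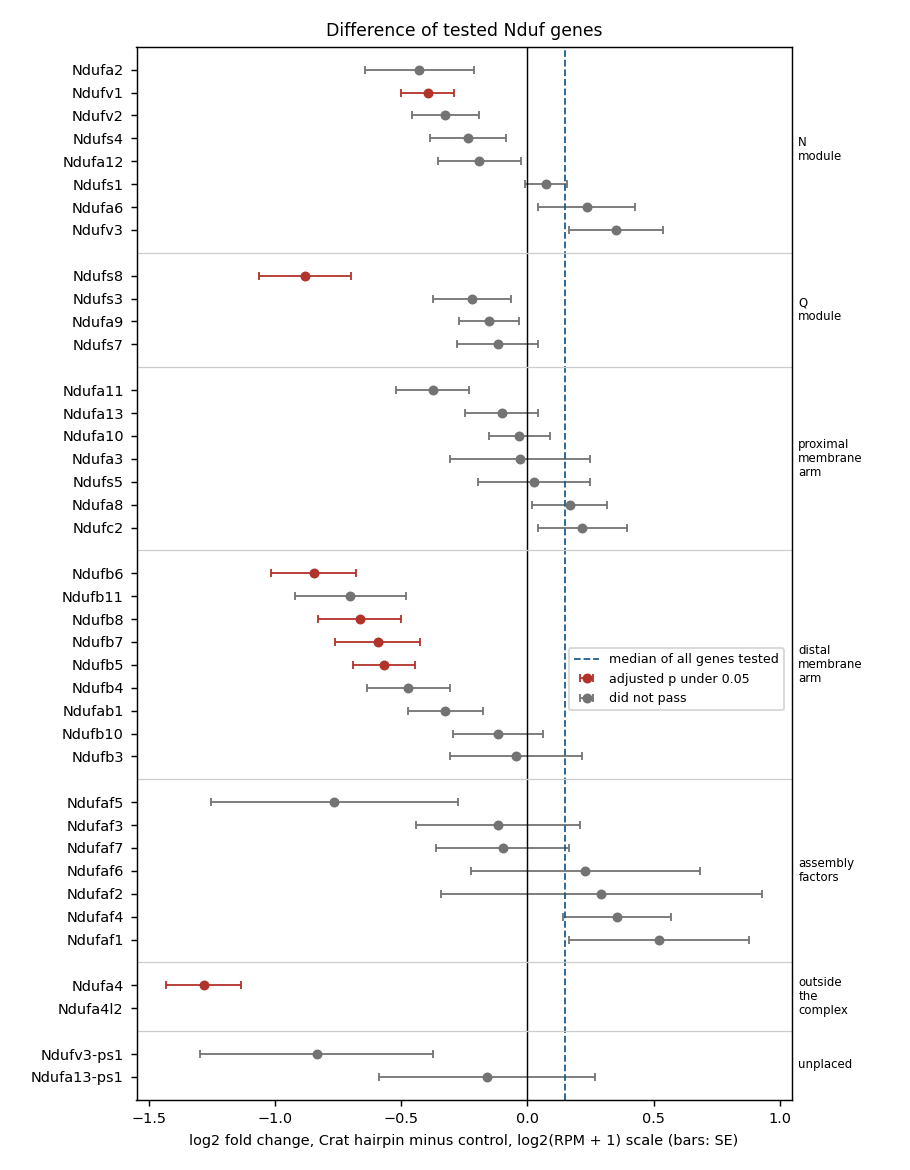
Log2 fold change (Crat hairpin minus control, log2(RPM + 1) scale) of 38 of the 39 tested members, with bars for the SE from limma and the dashed line at the median of all genes tested, 0.15. Red members passed an adjusted p under 0.05: 4 lie in the distal membrane arm, 1 each in the N and Q modules, and Ndufa4 lies farthest left at -1.28.

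A view that does not depend on how libraries are scaled is the share each arm takes of the reads of all 29 subunits. The distal membrane arm took 27.5% and 27.5% in the controls and 23.3% and 22.9% in the Crat hairpin libraries (exact 95% binomial intervals 27.2 to 27.8, 26.2 to 28.8, 20.7 to 26.1 and 21.7 to 24.1, counting error only). The N module took 31.8% and 31.8% against 34.4% and 34.5%, and the proximal membrane arm 17.8% and 17.3% against 21.4% and 19.2%. The Q module took 22.9% and 23.3% against 20.8% and 23.4%, the only one of the 4 whose groups overlapped. The arms' shares sum to a whole, so these are unequal changes, and which arm moved in absolute terms cannot be read from them. With 2 libraries against 2 no exact test of a share can pass.

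**Figure D3:**
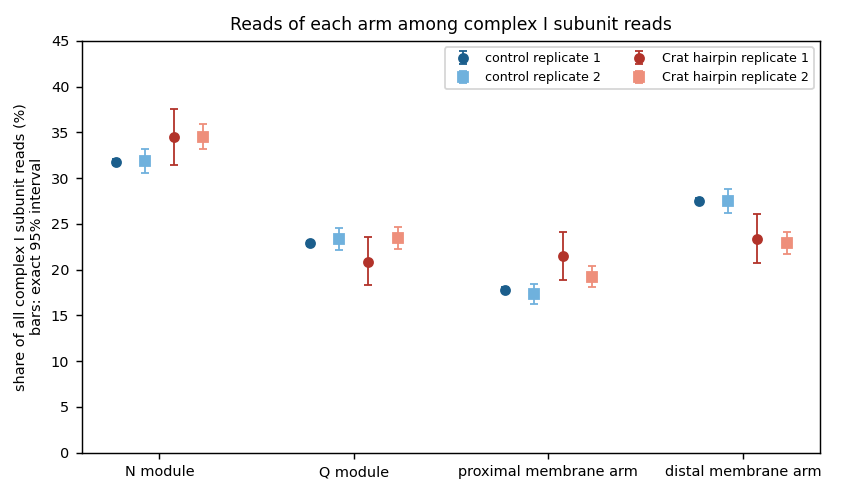
Share of all complex I subunit reads taken by each arm, in percent, for each library, with exact 95% binomial intervals that cover counting error only. In the distal membrane arm the Crat hairpin libraries (23.3% and 22.9%) lie below the controls (27.5% each); in the N module and the proximal arm they lie above.

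In the Q module, which carries electrons to ubiquinone, 1 of 5 members fell and 0 rose, with all 5 below 0 and a median of -0.22. Beside 6.36% lower and 12.6% higher over all genes, 1 call among 5 does not set the module apart. Ndufs8, a core subunit that holds iron-sulphur clusters on the path to ubiquinone, was at 73.8 and 77.2 RPM in the controls and at 43.5 and 37.6 RPM in the Crat hairpin libraries, on 14 and 61 reads. The groups were well apart, and Ndufs8 fell by 0.88 ± 0.18 (limma adjusted p = 0.00830). Ndufa9, an accessory subunit at the joint of the 2 arms, was at 169 and 183 RPM against 168 and 149 RPM, -0.15 ± 0.12 with a 95% interval from -0.42 to 0.11. Its neighbours across the groups, 169 and 168 RPM, could hardly be told apart.

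In the N module, which oxidises NADH, 1 of 8 members fell and 0 rose, 5 were below 0 and the median was -0.21. With 6.36% of all genes lower and 12.6% higher, 1 call among 8 does not set this module apart. Ndufv1, the core subunit that binds NADH and the flavin, was at 260 and 294 RPM in the controls and at 218 and 202 RPM in the Crat hairpin libraries. The groups did not overlap, and it fell by 0.40 ± 0.10 (limma adjusted p = 0.0266; DESeq2 adjusted p = 0.0712). Its partner Ndufv2, an iron-sulphur subunit, was at 180 and 146 RPM against 128 and 131 RPM, -0.33 ± 0.13 (limma adjusted p = 0.129; edgeR adjusted p = 0.00302). Leaving out control replicate 1 gave -0.18 for Ndufv2, and leaving out control replicate 2 gave -0.47. Ndufs1, the largest nuclear core subunit and the carrier of several iron-sulphur clusters, was at 327 and 333 RPM in the controls and at 339 and 356 RPM in the Crat hairpin libraries. It lay slightly higher in both, by 0.07 ± 0.08 with a 95% interval from -0.11 to 0.26, which leaves out a fall of the size of Ndufv1. Its sign turned with the scaling, to -0.12 under median-of-ratios scaling. Ndufa12 was at 79.7 and 74.1 RPM against 62.2 and 72.7 RPM, -0.19 ± 0.17 (limma adjusted p = 0.476), and -0.08 without Crat hairpin replicate 1.

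Among the core subunits the calls were mixed. Of the 7 encoded in the nucleus, Ndufs8 and Ndufv1 fell and 5 did not pass, with log2 fold changes from -0.88 to 0.07; edgeR called 4 of them lower. Of the 22 accessory subunits 4 fell, with values from -0.85 to 0.35. Over all genes 6.36% fell in limma and 10.1% in edgeR.

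In the proximal membrane arm, which joins the matrix arm to the pumps, 0 of 7 members were called by limma in either direction. As limma called 6.36% of all genes lower and 12.6% higher, 0 of 7 does not set this arm apart. By edgeR 1 member was lower, Ndufa11 (10.1% of all genes). The median was -0.03. Ndufa10, an accessory subunit with a nucleotide-kinase fold, was at 164 and 172 RPM in the controls and at 177 and 152 RPM in the Crat hairpin libraries. The Crat hairpin values bracketed the controls, and the log2 fold change was -0.03 ± 0.12 with a 95% interval from -0.30 to 0.24. Ndufa13, also known as GRIM-19, was at 98.4 and 110 RPM against 103 and 91.2 RPM, overlapping, with -0.10 ± 0.14 and an interval from -0.43 to 0.22. Ndufa13 has a pseudogene row of its own, Ndufa13-ps1, at 7.85 and 12.1 RPM against 9.33 and 8.01 RPM, and reads of such close copies can be split between them.

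The assembly factors, which build the complex and are not part of the finished enzyme, showed no call in limma or edgeR. Of 7, 0 passed in either direction, with values from -0.77 to 0.52 and a median of 0.23. With 6.36% of all genes lower and 12.6% higher in limma, 0 of 7 does not set the factors apart. All were counted with at most 16 reads in Crat hairpin replicate 1, so their precision was low. Ndufaf4, which acts on the early Q module, was at 39.5 and 33.3 RPM against 49.8 and 43.7 RPM. Both Crat hairpin libraries were higher, and the value was 0.36 ± 0.21 with a 95% interval from -0.12 to 0.83 (limma adjusted p = 0.294). Ndufaf7, a methyltransferase of the matrix, was at 24.0 and 25.7 RPM against 24.9 and 21.6 RPM, overlapping, with -0.10 ± 0.26. Ndufaf2 is a paralogue of Ndufa12 that sits in its place until late assembly. It was at 4.48 and 2.27 RPM against 3.11 and 5.55 RPM, resting on 3 reads in control replicate 2 and 1 in Crat hairpin replicate 1, and its value of 0.29 ± 0.64 (interval -1.14 to 1.72) shows little.

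Of 11 further assembly factors without the Nduf name that were found, of 12 listed, 1 rose and 0 fell, with a median of 0.25. Such counts are near the 12.6% higher and 6.36% lower over all genes in limma. The riser was Tmem70, which is needed for the assembly of the ATP synthase and of complex I. It was at 10.7 and 4.54 RPM in the controls and at 31.1 and 33.9 RPM in the Crat hairpin libraries. The groups were apart in every library, a rise of 2.06 ± 0.41 (limma adjusted p = 0.00653). That rise rests on 6 reads in control replicate 2 and 10 in Crat hairpin replicate 1, and the controls differed from each other.

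The largest change of the family lay outside the complex. Ndufa4 was first counted to complex I and is now placed in cytochrome c oxidase, complex IV. It was at 197 and 194 RPM in the controls and at 90.2 and 70.2 RPM in the Crat hairpin libraries, on 29 and 114 reads. The controls were nearly equal, both Crat hairpin libraries lay far below them, and Ndufa4 fell by 1.28 ± 0.15 (limma adjusted p = 2.56e-04). As a share of all members' reads, Ndufa4 went from 5.06% and 5.01% to 2.75% and 2.22% (exact 95% intervals 4.92 to 5.20, 4.43 to 5.65, 1.85 to 3.92 and 1.83 to 2.66). It was the only member called with either control library left out. Without Ndufa4 the members' sum in the Crat hairpin libraries was 0.854 of the controls. Its paralogue Ndufa4l2, which is known to be induced in hypoxia, was at 0.971 and 1.51 RPM in the controls, on 23 and 2 reads, and had no read in either Crat hairpin library. A floor of 3 reads over the Crat hairpin group is worth 1.54 RPM, above the control mean of 1.24 RPM, so no difference was detectable at this depth.

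Beside the rest of the respiratory chain, the nuclear complex I genes were among the lists with fewer calls, and of their 29 subunits alone 6 fell. The lists are not alike: the Nduf list also holds assembly factors and pseudogenes. Ndufa4 is counted in it and not under complex IV. All 7 mitochondrially encoded complex I subunits fell, with a median of -2.05; ND4L and ND4 fell by 2.45 and 2.13. Nuclear genes of complex IV fell in 8 of 13 tested cases, with a median of -0.48, led by Cox6c at -1.41 and Cox5b at -1.03. ATP synthase genes fell in 10 of 15 cases with a median of -0.45, Atp5mf by 1.19 and Atp5pf by 0.75. Complex III genes fell in 2 of 7 cases (Uqcrh by 1.21 and Uqcrfs1 by 0.38) with a median of -0.22. Complex II, which has no mitochondrially encoded part, had 0 of 7 called by limma, 1 lower in edgeR and 2 lower under median-of-ratios scaling, a median of -0.12, and its gene of highest level, Sdha, at 489 and 510 RPM against 398 and 465 RPM. None of these lists had a member that rose. Among all genes limma called 6.36% lower and 12.6% higher. Whether the lists differ from one another was not tested; the shares are counts of genes measured in the same 4 libraries.

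**Figure D4:**
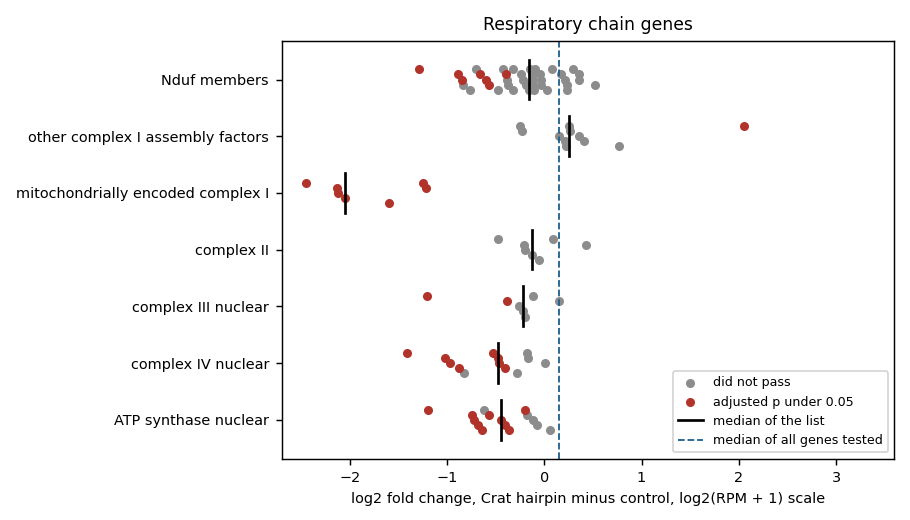
Log2 fold change (Crat hairpin minus control, log2(RPM + 1) scale) of each tested gene of the Nduf family and of 6 other lists of the respiratory chain. Red points passed an adjusted p under 0.05, the black bar is the list's median and the dashed line the median of all genes tested; medians run from -2.05 for mitochondrially encoded complex I to 0.25 for the other assembly factors.

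Transcription factors and coactivators known to drive nuclear respiratory genes were also listed. Of 11, 2 rose in limma, 4 in edgeR (Esrrg and Yy1 besides) and 1 under median-of-ratios scaling, with none lower in any of these. Of all genes, 12.6% were higher in limma and 22.6% in edgeR, and 1044 of 12949 under median-of-ratios scaling. The shares lower were 6.36%, 10.1% and 9.68%. A list of 11 genes is too short to tell its counts from these shares, and the list was not tested. Gabpa, the DNA-binding subunit of nuclear respiratory factor 2, was at 28.1 and 21.9 RPM in the controls and at 90.2 and 80.7 RPM in the Crat hairpin libraries, a rise of 1.74 ± 0.21 (limma adjusted p = 3.32e-04). Esrra, the estrogen-related receptor alpha, was at 17.6 and 18.2 RPM against 43.5 and 30.8 RPM, a rise of 0.995 ± 0.275 (limma adjusted p = 0.0324; not past the threshold under median-of-ratios scaling, adjusted p = 0.0745). Both were apart in every library. The coactivator Ppargc1a was at 24.7 and 18.2 RPM against 12.4 and 33.3 RPM, overlapping, on 4 reads in Crat hairpin replicate 1. Yy1 was at 34.4 and 37.1 RPM against 52.9 and 47.4 RPM, higher in both Crat hairpin libraries by 0.48 ± 0.20, which did not pass in limma (adjusted p = 0.141) and passed narrowly in edgeR (adjusted p = 0.0491). Esrrg, an estrogen-related receptor, was at 42.4 and 49.9 RPM against 52.9 and 75.2 RPM, 0.45 ± 0.22 in limma (adjusted p = 0.198) and 0.70 in edgeR (adjusted p = 3.00e-04).

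These factors bind short motifs near gene starts, so the promoter windows of the members were searched for their letters on both strands. The windows run from 250 bases before to 50 after the gene start and come from RefSeq for the rat build GRCr8, which is not the build of the expression table (mRatBN7.2); 35 of the 40 members were matched by symbol. The YY1 letters AAGATGGC were present in 8 of 35 members (22.9%), beside 3.17% of all 33469 windows and 5.17% of the windows of genes tested here. All 8 matches read in the direction of the gene and began between 1 base before and 27 bases after the start. The letters contain ATG, and whether this is the start codon of these genes was not examined. Shared place and direction are therefore not evidence of a factor site. Of these 8 genes Ndufb8 fell, 6 did not pass and Ndufa4l2 was not tested. Among the 35 matched members 7 fell, and limma called 6.36% of all genes lower, so 1 call does not set the 8 genes apart. The following 30-base stretches, 5′ to 3′ on the gene's strand, show the match in capitals in 6 of them, to compare a member that fell with members that did not pass.
Ndufb8 (chr1:253362897-253362926, minus strand): cggagaaggtgAAGATGGCggcgtcccggg
Ndufs4 (chr2:47794892-47794921, minus strand): ttgcccacaggAAGATGGCggcggtctcaa
Ndufs7 (chr7:10110476-10110505, minus strand): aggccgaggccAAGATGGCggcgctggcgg
Ndufa9 (chr4:161374142-161374171, minus strand): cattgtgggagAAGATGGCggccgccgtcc
Ndufa6 (chr7:115750284-115750313, minus strand): gcttccttagcAAGATGGCggccgcggcca
Ndufa3 (chr1:74515524-74515553, minus strand): tgtccaagaccAAGATGGCtgctagtaagt

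The GABPA letters CCGGAAG were present in 7 of 35 members (20%), beside 8.75% of all windows and 17.1% of the windows of genes tested. Of the 7, Ndufs8 and Ndufb7 fell. Among the 35 matched members 7 fell, and limma called 6.36% of all genes lower. Such small counts do not set the members with these letters apart. A match near the start is not particular to the members that fell: Ndufa13 and Ndufaf1, which did not pass, have one beginning at -9 and -24. In Ndufs8 and Ndufb7 the match begins 12 and 16 bases upstream, in opposite directions: the capitals in Ndufs8 are the reverse complement.
Ndufs8 (chr1:210573693-210573721, minus strand): ttaggctccgcCTTCCGGttgacccgcac
Ndufb7 (chr19:41477290-41477318, minus strand): ggctagatgacCCGGAAGtcactgaaggg

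The NRF1 core GCATGCGC, whose forward and reverse readings can overlap, was present in 4 members: Ndufa6, Ndufa11, Ndufaf4 and Ndufaf5. These were 11.4% of the matched members, beside 2.47% of all windows and 5.04% of tested ones. None of the 4 was called by limma. With 6.36% of all genes lower and 12.6% higher, this does not set them apart. The ESRRA letters TGACCTTG or TCAAGGTCA, of which the second holds the reverse complement of the first, were present in Ndufs5 alone (2.86% beside 1.52% and 0.927%). Of the 7 members that fell, Ndufa4, Ndufb6, Ndufb5 and Ndufv1 had none of these letters in the window. A match is a description of letters, and its use by a factor was not tested.

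**Figure D5:**
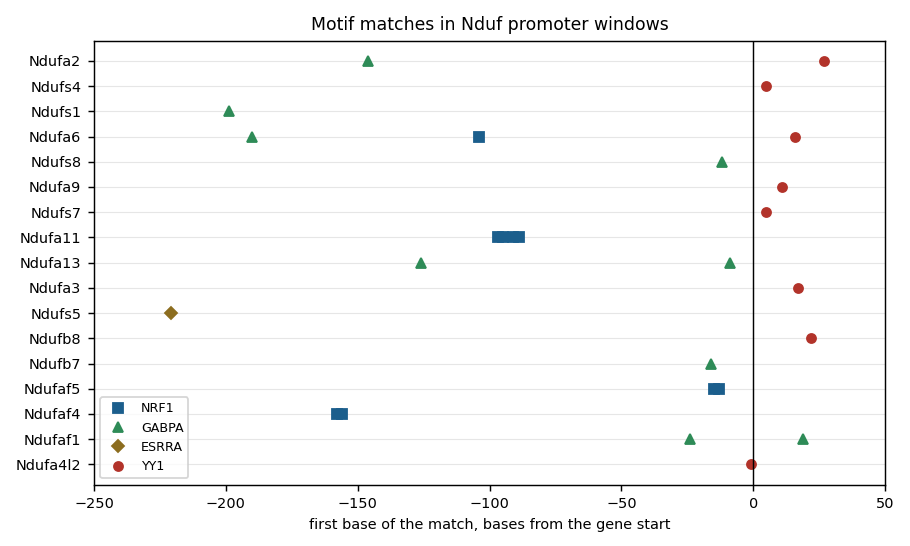
Position of the first base of each motif match relative to the gene start, for the 17 members with a match in the window from 250 bases before to 50 after the start. The 8 YY1 matches (red circles) lie between -1 and 27, while NRF1 and GABPA matches spread from -199 to 19.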

How the data were processed

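Total RNA of 4 libraries, 2 per group, went into cDNA libraries for Illumina HiSeq sequencing (per the labels' protocols). The tools kallisto and DESeq2, with no version, and the rat build mRatBN7.2 are named in the submitters' processing notes. How strand was treated, which annotation was used and which filters were set are not given in the sources used here. From the authors comes 1 deposited table of 14318 rows and 14137 gene identifiers. Per the file headers the library columns hold TPM, but the deposited signal is a whole multiple of the value of 1 read in every library (100% of values within 0.02 of a whole read), so it is RPM. The p-value and adjusted p-value columns are the authors' own comparison as deposited, and are quoted only as theirs. An identifier on several rows was used once; that of Ndufs5 also carries the symbol LOC100363268.

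The groups were compared on log2(RPM + 1), for identifiers with a mean of at least 1 RPM, by limma (3.58.1, run in R 4.3.3) using a variance trend; p-values were adjusted by Benjamini-Hochberg over all 12949 identifiers, with a threshold of 0.05. Design and test had been written for TPM and were kept for RPM. A log2(value + 1) scale understates changes of low genes. edgeR 4.0.16 (quasi-likelihood) and DESeq2 1.42.0 on the recovered reads, both scaled to library totals, were alternatives. A chi-square test of reads gave 1.47 per degree of freedom in the control pair and 1.29 in the Crat hairpin pair, so neither pair agreed within sampling noise. The test was tested on simulated data. Promoter windows came from RefSeq (GRCr8). RefSeq lists 49 Nduf pseudogenes, 7 of them of Ndufb4, 4 of Ndufa13 and 2 of Ndufa4, and reads could be split with such copies.

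The members and lists were chosen with earlier results of these data known. Values per library are given for up to 4 members past the threshold by size and up to 2 others by mean level in each part of the complex, and for 3 paralogues (19 tested members in all, and Ndufa4l2); Ndufb3, Ndufb4 and Ndufb10 were added after their values were seen. In other lists up to 2 genes past the threshold are named, or the most abundant where none passed; Ppargc1a, Yy1, Esrrg, Ndufa11 and the motif-bearing genes are named as exceptions. The values of 1 member are not reported here; it is kept in the counts, sums and medians.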

Additional observations from a re-analysis of the deposited data

How the results depend on the processing

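The number of members that fell was 7 and lay between 7 and 10 under other pseudocounts, filters, the robust prior, the total without mitochondrial transcripts, DESeq2 with its own size factors and the authors' deposited adjusted p-values, while 5.16% to 9.35% of all genes fell. It was 4 in DESeq2 scaled to library totals, 13 under median-of-ratios and under TMM scaling, 14 in edgeR and 23 in edgeR with TMM scaling. It was 0 in limma without a variance trend (5 at an unadjusted p under 0.05) and 0 with reads thinned to the shallowest library in 1 draw (9 at an unadjusted p under 0.05); edgeR and DESeq2 on all reads called 14 and 4. With a library left out the number ran from 1 to 14, and the number that rose from 0 to 4 (Ndufa6, Ndufaf1, Ndufb3 and Ndufc2, all without Crat hairpin replicate 2); no other setting called a rise. Calls with a library left out are weak evidence, as 1 library remains in that group and its spread is not measured. In every setting that called any member, Ndufa4 was among those lower. The cause of these shifts was not tested.

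The members' median log2 fold change of -0.16 stayed below 0 in all settings; it was -0.34 under median-of-ratios scaling, -0.36 under TMM, -0.36 in DESeq2 with its own size factors, -0.42 in edgeR with TMM and -0.37 after thinning. The log2 ratio of summed levels, -0.27, was -0.46, -0.47 and -0.35 under median-of-ratios scaling, TMM and the total without mitochondrial transcripts, and -0.23 without Ndufa4. Among the members named with values, sign changes were seen for Ndufs1, for Ndufb3 and, after thinning, for Ndufa9 (0.40), Ndufaf7 (0.48), Ndufaf2 (-0.41) and Ndufb10 (0.27). Ndufs1 was at -0.12 under median-of-ratios scaling, -0.13 under TMM and -0.10 in DESeq2 with its own size factors. It was at -0.11 in edgeR with TMM, -0.013 without mitochondrial transcripts and -0.022 thinned. Ndufb3 was at 0.025 by the deposited group means. With a library left out Ndufb3 ran from -0.50 to 0.41, the last without Crat hairpin replicate 2. With a library left out the values ran from -0.14 to 0.077 for Ndufa10, from -0.20 to 0.0011 for Ndufaf7 and from -0.078 to 0.67 for Ndufaf2.

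With the replicate number as a replicate block 9 members fell, Ndufb11 among them. Same-numbered libraries deviated together with a correlation of 0.0061 across genes. Counting noise in the shallow libraries can also keep this value low, so it cannot exclude a pairing. The main test did not treat the numbers as a pairing. Thinning, edgeR with TMM, DESeq2 with its own size factors and the sum without Ndufa4 were chosen after seeing the data.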
